A study of Mus musculus with 14 samples.

Results

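The genes described here are 33 lysosome and autophagy genes of the mouse heart, taken as the rows of the deposited count table whose symbol was on a list of lysosomal enzymes, lysosomal membrane proteins, proton pump subunits, nutrient-sensing regulators and autophagy proteins. All 33 were among the 54532 gene rows, and all 33 passed the filter on low counts that left 15876 genes for testing. The question was whether they follow the transcription factor gene Tfe3, which was known to be lower in the knockout libraries when the question was asked.

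The libraries came from polyadenylated RNA of ventricular heart tissue of mice, 1 week after surgery. The 2 genotypes were wild type and a knockout of Ccl24, which encodes a CC chemokine. Surgery was either transverse aortic constriction (TAC), which raises the pressure the left ventricle has to overcome, or sham. There were 2 wild type sham, 6 wild type TAC, 2 knockout sham and 4 knockout TAC libraries, and the design text gives the same numbers of mice. The labels used here do not give strain, age, whether the controls were littermates, or how the knockout allele was made, and they name no other allele or agent.

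Lysosomes are acidic compartments in which hydrolases break down proteins, sugars and lipids. A proton pump in their membrane keeps them acidic, and autophagy brings them damaged organelles and proteins. The related transcription factors TFEB, TFE3 and MITF bind a short DNA element and are known to raise the transcription of many lysosomal and autophagy genes when nutrients are scarce or lysosomes are stressed. In the heart, autophagy and lysosomes clear worn mitochondria and proteins from muscle cells, and macrophages are also rich in lysosomes.

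The element bound by these factors contains CACGTG, and its extended form searched here was TCACGTGA. Both read the same on either strand, and the longer form contains the shorter. In RefSeq windows from 250 bases before to 50 bases after a gene's start (build GRCm38.p6), 28 of the 33 genes had an entry. CACGTG was present in 10 of the 28 (35.7%), against 8.09% of all 27025 genes with a window. TCACGTGA was present in 6 of 28 (21.4%), against 1.12% of all genes. The 27025 genes were not limited to those tested here or matched to the 33 for level. These matches describe the letters of the windows and do not show binding.

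The stretches shown first are from the 5 genes that hold the element and were lower in the knockout after TAC, as described below. Each is written 5′ to 3′ on the gene's own strand, with the element in capitals (CACGTG, or TCACGTGA where the longer form is present).
Naglu: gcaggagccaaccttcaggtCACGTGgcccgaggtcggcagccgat
Glb1: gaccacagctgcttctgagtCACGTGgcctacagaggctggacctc
Ctsl: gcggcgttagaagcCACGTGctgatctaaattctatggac
Lamp1: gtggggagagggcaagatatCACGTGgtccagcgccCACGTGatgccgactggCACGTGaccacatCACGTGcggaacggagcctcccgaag
Mcoln1: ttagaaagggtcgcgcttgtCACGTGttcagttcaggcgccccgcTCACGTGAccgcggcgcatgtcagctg
These lie at chr11:101070001-101070046 (Naglu, plus strand), chr9:114401010-114401055 (Glb1, plus), chr13:64370731-64370770 (Ctsl, minus), chr8:13159080-13159171 (Lamp1, plus) and chr8:3500428-3500499 (Mcoln1, plus) of GRCm38. The element began 73 bases before the RefSeq start of Naglu and 48 bases before that of Glb1. Lamp1 held 4 copies within its stretch and Mcoln1 held 2. GENCODE M21 starts Naglu at 101070012, Mcoln1 at 3500457 and Ctsl at 64370890. By those starts the elements of Naglu and Ctsl and the downstream copy of Mcoln1 lie inside the genes.

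The next pair holds the longer form but belongs to genes that did not pass the test in the knockout, and is shown for contrast.
Gla: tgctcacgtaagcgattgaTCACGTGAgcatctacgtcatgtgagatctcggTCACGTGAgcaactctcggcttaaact
Atp6v1a: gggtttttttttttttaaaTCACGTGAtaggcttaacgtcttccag
They lie at chrX:134601174-134601252 (Gla, minus strand) and chr16:44139365-44139410 (Atp6v1a, minus). Gla held the longer form at 2 positions and Atp6v1a at 1.

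The libraries held 17072262 to 33123052 gene counts, and levels are CPM (counts relative to the library total, scaled with edgeR's TMM factors). Ccl24 was at 6 and 3 counts in knockout sham, at 8, 5, 6 and 3 in knockout TAC, at 61 and 72 in wild type sham, and at 3 in replicate 1 and 56 to 105 in the other wild type TAC libraries. The library labelled wild type TAC 1 held 3 Ccl24 counts, which goes against its label, so the counts of called genes that it moves are also given without it. Without it, the log2 fold changes of the 33 genes after TAC moved by at most 0.085 and none changed sign. Its Tfe3 level was 45.8 CPM, within the wild type range, whereas its level of Gpnmb, a lysosomal glycoprotein gene, was 0.810 CPM, within the knockout range of 0.707 to 1.32 CPM and below the 2.27 to 5.18 CPM of the other wild type libraries. All 14 libraries held 0 to 3 counts of Xist and 671 to 1517 counts of the Y-linked Ddx3y, so all were male by these genes and X-linked Tfe3, Gla, Lamp2 and Atp6ap1 could be compared without a difference of sex. Per kilobase of exon, Psap stood highest of the 33 genes, at a mean of 488 CPM per kb over all libraries, followed by Ctsd at 297 and Lamp1 at 207, and Gla stood lowest at 1.34.

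Tfe3 lies on chromosome X at 7762560 to 7775202. It was at 43.7 and 47.2 CPM in wild type sham and at 45.8, 50.3, 50.7, 49.6, 52.3 and 49.98 CPM in wild type TAC (replicates 1, 2, 3, 4, 6 and 7). Knockout sham libraries held 23.5 and 21.6 CPM, and knockout TAC libraries held 28.0, 29.2, 25.7 and 24.9 CPM. Every knockout library lay below every wild type library, and the knockout mean was 52.3% of the wild type mean. The log2 fold change of knockout over wild type was -0.88 after TAC (SE 0.07) and -1.01 after sham (SE 0.11). This difference is the premise of the comparison and is given as a description.

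Neither Tfeb nor Mitf, relatives of Tfe3, was lower in the knockout. Tfeb, the family member most often tied to lysosomal genes, was at 41.2 and 44.2 CPM in wild type sham, 37.5 to 42.1 (median 39.5) in wild type TAC, 40.6 and 45.2 in knockout sham, and 43.2, 36.8, 38.2 and 37.8 in knockout TAC. Its groups overlapped, with a log2 fold change of -0.03 after TAC (95% interval -0.17 to 0.12, edgeR adjusted p = 0.82). Mitf, best known from pigment cells and present in heart muscle, was at 28.3, 32.6, 30.4 and 26.4 CPM in knockout TAC against 18.9 to 28.1 (median 23.6) in wild type TAC. It stood 0.35 above wild type on the log2 scale (interval 0.12 to 0.57), and missed the threshold (edgeR adjusted p = 0.051). It passed when the library labelled wild type TAC 1 was left out. Tfec held 0.049 to 1.38 CPM and differed by -0.67 (SE 0.43, edgeR adjusted p = 0.32).

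**Figure D1:**
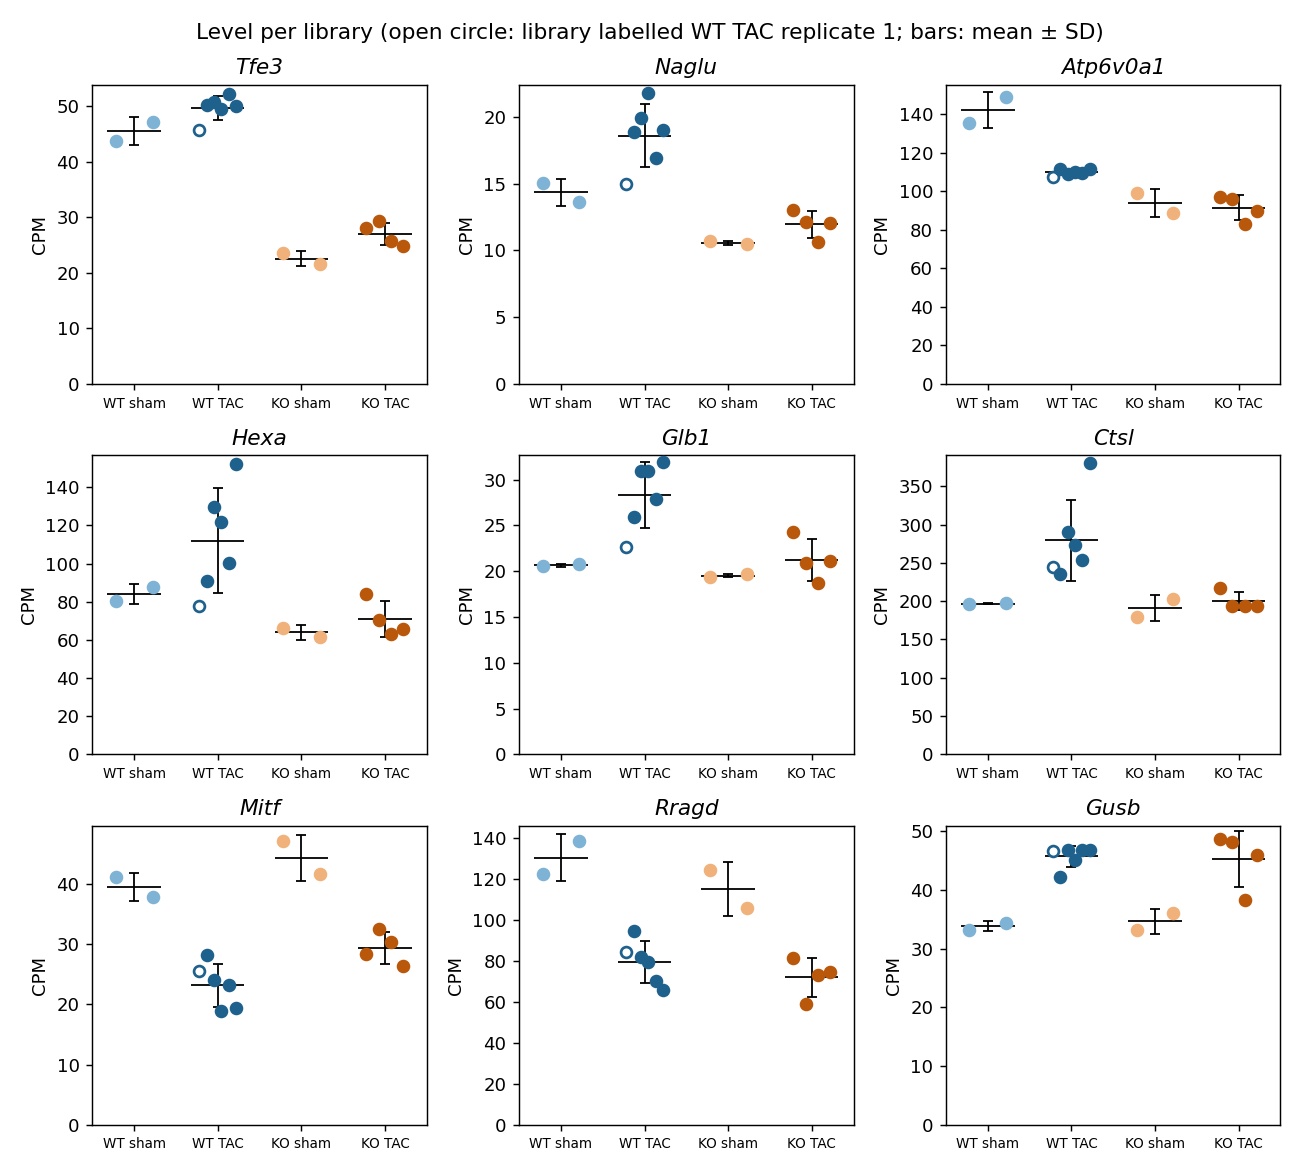
CPM with TMM scaling (vertical axis) of Tfe3 and 8 of the lysosome and autophagy genes in each library, by group (WT wild type, KO knockout); points are libraries, the line is the mean, whiskers are ± SD, and the open circle is the library labelled wild type TAC 1. Every knockout library lies below every wild type library at Tfe3, Naglu and Atp6v0a1, while the genotypes overlap at Gusb and Rragd.

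After TAC, a subset of these genes was lower in the knockout hearts, by amounts smaller than the difference in Tfe3, and none was higher. In edgeR's quasi-likelihood test 8 of 33 (24.2%) were lower and 0 were higher at an adjusted p under 0.05. Over all 15876 genes 5.63% were lower and 3.71% higher. Among the 10872 genes at least as abundant as the least abundant of the 33, 6.91% were lower. The median log2 fold change of the 33 was -0.25, against -0.01 over all genes tested, and 32 of the 33 lay below 0, as did 51.3% of all genes. The 8 were Naglu, Glb1, Ctsl, Hexa, Atp6v0a1, Lamp1, Mcoln1 and Npc2.

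None of the 33 differed downward by as much as Tfe3, whose change after TAC was -0.88. For 32 of the 33 genes the 95% interval lay wholly above that value, the exception being Hexa, whose interval reached -1.003. The value of Tfe3 was taken without its own error, and Tfe3 was chosen for its lower level. The count is therefore a description and not a test. The range of the 33 ran from -0.66 (Hexa) to 0.35 (Mitf).

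The glycosidases, which strip sugars from glycoproteins, glycolipids and glycosaminoglycans, held the 2 largest differences after TAC. Naglu, the enzyme of heparan sulfate breakdown missing in Sanfilippo syndrome type B, was at 13.03, 12.14, 10.61 and 12.07 CPM in knockout TAC and at 15.01, 18.85, 19.95, 21.84, 16.97 and 19.00 CPM in wild type TAC. Knockout sham libraries held 10.69 and 10.48 CPM and wild type sham libraries 15.06 and 13.65. All 6 knockout libraries were below all 8 wild type libraries, and the difference after TAC was -0.64 (SE 0.10, edgeR adjusted p = 0.0029).

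Hexa encodes a subunit of the hexosaminidase that degrades GM2 ganglioside. It held 84.2, 70.3, 63.2 and 65.5 CPM in knockout TAC against 77.6, 90.6, 129.9, 121.6, 100.5 and 152.1 in wild type TAC. The highest knockout value exceeded the lowest wild type value, which was that of the library labelled wild type TAC 1; without it the groups did not overlap. The difference was -0.66 (SE 0.16, edgeR adjusted p = 0.023).

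Glb1, lysosomal beta-galactosidase, held 24.3, 20.9, 18.7 and 21.1 CPM in knockout TAC against 22.6, 25.9, 31.0, 30.9, 27.9 and 31.9 in wild type TAC. Its difference was -0.42 (SE 0.10, edgeR adjusted p = 0.020), and the only wild type library within the knockout range was again replicate 1. In sham hearts Glb1 was at 20.5 and 20.8 CPM in wild type and 19.4 and 19.6 in knockout, so knockout TAC stayed near the sham level. Of the other glycosidases and the sulfatase, Gla, Galns, Neu1 and Gusb did not pass, with differences between -0.27 (Galns) and -0.01 (Gusb, interval -0.17 to 0.14).

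Among the 5 proteases, Ctsl passed. Ctsl encodes cathepsin L, a cysteine protease whose loss causes cardiomyopathy in mice. It was at 217.4, 194.0, 194.0 and 193.9 CPM in knockout TAC and at 245.0, 235.0, 289.8, 273.5, 253.7 and 379.9 in wild type TAC. The groups did not overlap, and the difference was -0.48 (SE 0.12, edgeR adjusted p = 0.020). Ctsd, the main aspartic protease of lysosomes, differed by -0.43 and missed the threshold (edgeR adjusted p = 0.057). Ctsb, Ctsa and Ctsz were at -0.37, -0.27 and -0.25.

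Of 7 membrane and lipid-handling genes, 3 were lower after TAC. Lamp1, an abundant glycoprotein of the lysosomal membrane, stood at 622 ± 55.2 CPM in wild type TAC (SD, n = 6) and 487 ± 58.3 in knockout TAC (n = 4), a difference of -0.35 (edgeR adjusted p = 0.031). Npc2, which hands cholesterol out of the lysosome, stood at 117 ± 26.5 against 84.7 ± 7.05 CPM (-0.46, edgeR adjusted p = 0.043). Mcoln1, a calcium channel of the lysosomal membrane, stood at 30.6 ± 2.35 against 24.8 ± 1.93 CPM (-0.30, edgeR adjusted p = 0.033). Lamp2, Cd63, Npc1 and Psap lay between -0.40 (Cd63) and -0.08 (Psap) without passing.

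In the proton pump group, 1 of 6 genes passed. Atp6v0a1, a membrane subunit of the pump, held 97.3, 95.8, 83.3 and 89.8 CPM in knockout TAC and 107.4 to 111.8 (median 109.8) in wild type TAC. Its difference of -0.26 (SE 0.07, edgeR adjusted p = 0.024) was small, but the wild type libraries spread by only 1.64 CPM (SD, n = 6). None of the 4 autophagy genes passed. Sqstm1, which encodes the cargo receptor p62, was at -0.37 (edgeR adjusted p = 0.078), and Wipi1, Map1lc3b and Gabarapl1 were at -0.20, -0.18 and -0.16. Of the regulators, Flcn and Rragd were at -0.03 and -0.14, and neither passed.

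**Figure D2:**
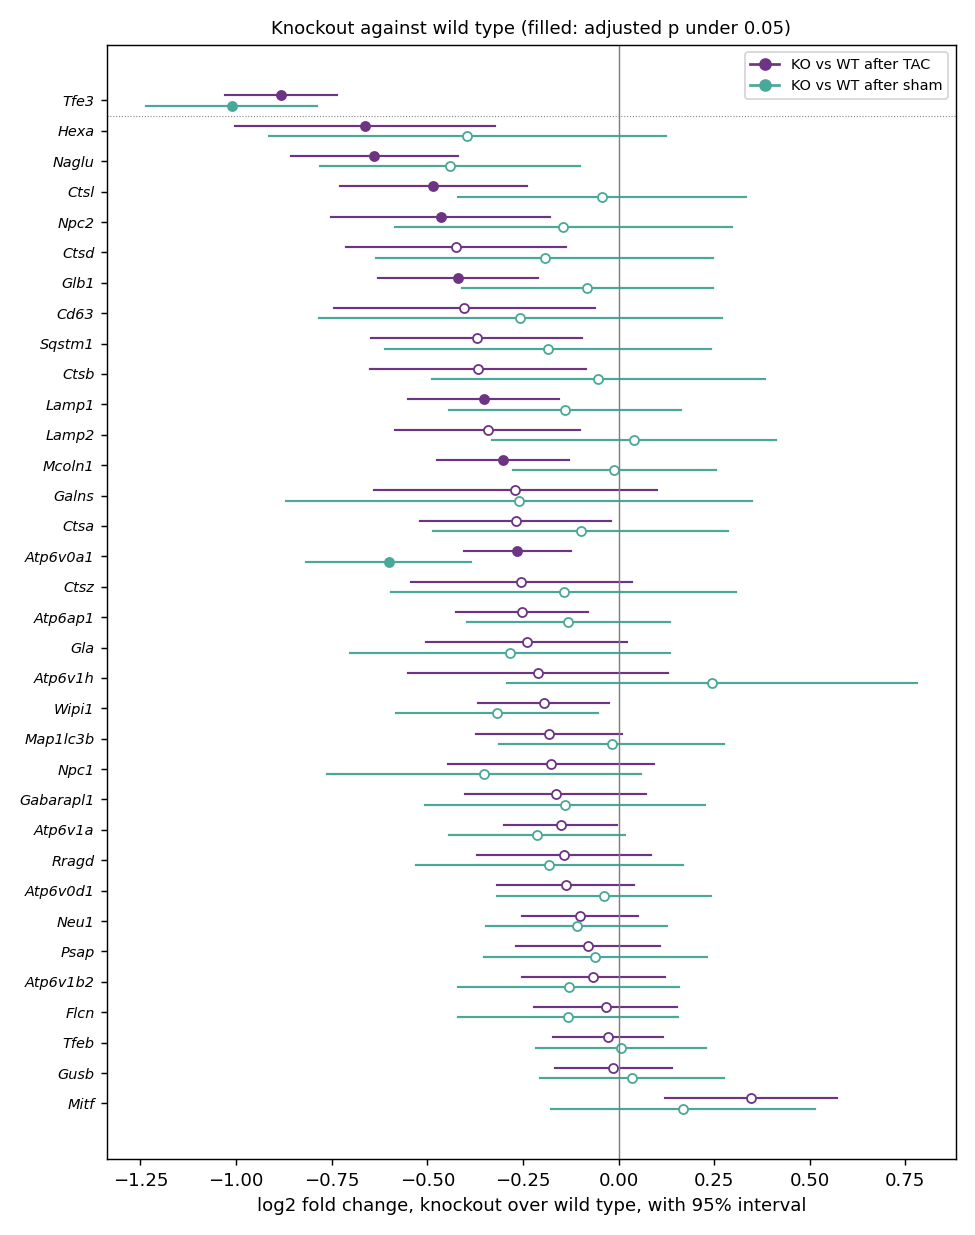
Log2 fold change of knockout over wild type (horizontal axis) with 95% intervals for each of the 33 genes and Tfe3, after TAC (purple) and after sham (green), ordered by the change after TAC; filled points passed an edgeR adjusted p of 0.05. After TAC 32 of 33 points lie left of 0, and Tfe3 lies to the left of all of them in both surgeries.

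In values that do not overlap, 4 of 33 genes (Atp6v0a1, Ctsl, Gla and Naglu) had every knockout TAC library below every wild type TAC library, where 4.08% of all genes did so, and 0 had every knockout TAC library above, where 2.44% did. Without the library labelled wild type TAC 1 the counts were 9 and 0, where 7.56% of all genes had every knockout TAC library below and 6.81% had every one above. Atp6v0a1 and Naglu alone, 2 of 33, had all 6 knockout libraries below all 8 wild type libraries, as did 1.13% of all genes tested; 0 had them all above, against 0.674% of all genes.

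The number of genes called after TAC moved with single libraries. It was 14 lower and 1 higher (Mitf) without the library labelled wild type TAC 1, and all 8 genes above were among the 14; in that fit 1589 of all 15880 genes tested were lower and 1350 higher. The differences of the 8 then ran from -0.75 (Hexa) to -0.27 (Atp6v0a1), and Naglu was at -0.69 (edgeR adjusted p = 0.00027). The number lower was 1 without knockout TAC replicate 4 or 5 and 2 without knockout TAC replicate 2. It was 3 without wild type TAC replicate 3 or 4, and 13 without knockout TAC replicate 1. Shares of all genes called are not given for these other fits, so these counts may move with calls over all genes. Naglu passed in each of the 14 fits that left out 1 library. The median of the 33 genes stayed between -0.30 and -0.19 in these fits.

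After sham surgery only Atp6v0a1 passed, 1 of 33 lower and 0 higher, where 0.0882% of all genes were lower and 0.0378% higher. It was at 99.0 and 88.7 CPM in knockout sham and at 136 and 149 CPM in wild type sham. The difference was -0.60 (SE 0.10, edgeR adjusted p = 0.027), and the call was lost when any 1 of the 4 sham libraries was left out. The median of the 33 genes was -0.13, against 0.01 over all genes, and 28 of 33 were below 0, as were 48.9% of all genes. Tfe3 was at its lowest relative level in these libraries, at -1.01. For all 33 genes the 95% interval lay above that value, again taken without its own error and as a description. Naglu, Hexa, Npc1 and Wipi1 differed by -0.44, -0.40, -0.35 and -0.32, and did not pass with 2 libraries a group.

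Over both surgeries, 4 of 33 genes were lower and 0 higher, against 5.22% and 3.73% of all genes. They were Atp6v0a1 (-0.43, SE 0.06, edgeR adjusted p = 0.0012), Naglu (-0.54, SE 0.09, adjusted p = 0.0056), Hexa (-0.53, SE 0.15, adjusted p = 0.037) and Wipi1 (-0.26, SE 0.07, adjusted p = 0.041). Wipi1, which encodes a lipid-binding protein of early autophagosome membranes, held 114 and 97.3 CPM in knockout sham and 125 and 138 in wild type sham. After TAC it held 138, 118, 111 and 108 CPM in the knockout and 128 to 144 (median 138) in wild type, so the groups overlapped through knockout TAC replicate 1. Without the library labelled wild type TAC 1, 7 genes were lower, the 4 named and Glb1, Lamp1 and Sqstm1, where 7.44% of all genes were lower. For the other fits that left out 1 library, shares of all genes called are not given. Without knockout TAC replicate 1 the count was also 7. It was 2, Atp6v0a1 and Naglu, when the fit left out the second knockout sham library, either wild type sham library, any of knockout TAC 2, 4 and 5, or either of wild type TAC 3 and 4.

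Atp6v0a1 and Naglu, the pair that separated the genotypes completely, are neighbours on chromosome 11. Atp6v0a1 spans 101009452 to 101063719 and Naglu 101070012 to 101077672, both on the plus strand, with 6292 bases between them. Among the other 64 tested genes within 1 Mb of the start of Naglu, 5 were lower and 4 higher over both surgeries. Over all genes 5.22% were lower and 3.73% higher, and the median of the 64 was -0.01. The 4 higher genes were Gm10039, Cntd1, Rdm1 and Cd300lg. The 5 lower genes were Acly, Nkiras2, Mlx, Retreg3 and Vat1. Mlx, which encodes a helix-loop-helix transcription factor partner, starts 17265 bases beyond the start of Naglu. It was at -0.40 (SE 0.06, edgeR adjusted p = 0.0030). Retreg3, starting 49881 bases beyond, was at -0.25 (SE 0.06, adjusted p = 0.026). This neighbourhood was examined after the values were seen. Around Tfe3, 31 tested genes started within 1 Mb, and 1 of them, Slc38a5, was lower (-1.68, SE 0.40, edgeR adjusted p = 0.020). None was higher, beside the same shares over all genes.

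The promoter element was found both in genes that were lower after TAC and in genes that did not pass. Of the 8 genes lower after TAC, 5 held CACGTG, against 5 of the 20 others with a window. TCACGTGA was in 1 of the 8 (Mcoln1) and 5 of the 20 (Ctsa, Ctsd, Gla, Atp6v0d1 and Atp6v1a). No CACGTG was found in the windows of Hexa, Npc2 and Atp6v0a1. Ctsa, with the longer form at 2 positions in its window 2, differed by -0.27 without passing. Its window 1, which holds the GENCODE start at 164832873, had no CACGTG. The Atp6v0a1 window (chr11:101010148-101010447) matched no GENCODE transcript start, and GENCODE starts that gene at 101009452. The absence of the element there therefore does not describe the GENCODE start. The windows of Lamp2, Atp6v0d1, Flcn and Rragd and window 3 of Mitf also matched no transcript start. These counts are a description of few genes and were not tested.

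TAC itself moved these genes in both directions in wild type hearts: 8 of 33 rose and 5 fell, where 6.36% of all genes rose and 5.80% fell. By role, 2 of 5 proteases, 3 of 7 glycosidases and sulfatase, 2 of 7 membrane and lipid-handling genes and 1 of 6 pump genes rose. Of the 4 regulators 3 fell (all but Tfeb), as did 1 membrane gene and 1 pump gene, and none of the 4 autophagy genes passed. The median was 0.26, against 0.01 over all genes. The genes that rose were Gusb, Ctsz, Galns, Cd63, Glb1, Ctsl, Atp6v1h and Npc2, and those that fell were Mitf, Rragd, Npc1, Atp6v0a1 and Flcn.

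Galns, a sulfatase of keratan sulfate breakdown, was at 6.27 and 7.31 CPM in wild type sham and 9.38 to 16.8 (median 12.3) in wild type TAC, a change of 0.88 (SE 0.24, edgeR adjusted p = 0.028). Its knockout libraries held 5.19 and 6.12 CPM after sham and 13.8, 10.9, 8.31 and 8.22 after TAC. Cd63, a tetraspanin of late endosomes and lysosomes, was at 104 and 103 CPM and then at 125 to 247 (median 181), a change of 0.79 (SE 0.21, adjusted p = 0.028), and in the knockout at 83.02 and 90.8 CPM and then at 156, 147, 123 and 119. Ctsz, which encodes a carboxypeptidase cathepsin, was at 52.5 and 48.5 CPM and then at 67.4 to 116 (median 87.3), a change of 0.78 (SE 0.18, adjusted p = 0.017), and in the knockout at 40.7 and 50.7 CPM and then at 77.9, 75.6, 62.7 and 74.3. All wild type TAC libraries were above both sham libraries at these 3 genes, with replicate 7 highest at each.

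Gusb, beta-glucuronidase, moved with less spread than these. It was at 33.2 and 34.4 CPM in wild type sham and at 42.3 to 46.9 (median 46.7) in wild type TAC, a change of 0.44 (SE 0.09, edgeR adjusted p = 0.014). In the knockout it went from 33.2 and 36.1 CPM to 48.7, 48.1, 38.4 and 46.0, a change of 0.39 (SE 0.10, adjusted p = 0.039). Gusb was thus raised by TAC in each genotype and was at nearly the same level in both.

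Mitf went from 41.2 and 37.8 CPM in wild type sham to 18.9 to 28.1 (median 23.6) after TAC, a change of -0.77 (SE 0.13, edgeR adjusted p = 0.0064). In the knockout it went from 47.1 and 41.7 CPM to 28.3, 32.6, 30.4 and 26.4, a change of -0.59 (SE 0.14, adjusted p = 0.027). Rragd, a GTPase that tethers the mTORC1 kinase complex to lysosomes, showed the same pattern. It went from 122 and 138 CPM to 65.8 to 94.5 (median 80.6) in wild type (-0.71, SE 0.13, edgeR adjusted p = 0.0080). In the knockout it went from 124 and 106 CPM to 81.5, 59.0, 72.9 and 74.3 (-0.68, SE 0.14, adjusted p = 0.015). No TAC library reached a sham library of its genotype at either gene.

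Npc1, the membrane partner of Npc2 in cholesterol export, fell where Npc2 rose. It was at 59.8 and 61.9 CPM in wild type sham and at 26.97 to 46.7 (median 34.4) after TAC (-0.74, SE 0.15, edgeR adjusted p = 0.012). Atp6v0a1 fell from 136 and 149 CPM to 107.4 to 111.8 (-0.37, SE 0.08, adjusted p = 0.014). Another pump gene, Atp6v1h, rose by 0.71 (edgeR adjusted p = 0.043), with its highest value, 51.2 CPM, in replicate 7 against 33.2 in the next library. Flcn, the folliculin gene that controls RagC and RagD, fell by 0.39 on the log2 scale (edgeR adjusted p = 0.031). Tfe3 itself changed by 0.13 with TAC in wild type (interval -0.05 to 0.31) and by 0.26 in the knockout (interval 0.06 to 0.46), without passing in either.

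In the knockout, TAC raised 1 of the 33 genes (Gusb) and lowered 2 (Rragd and Mitf), where 2.36% of all genes rose and 1.73% fell, and the median was 0.11. Ctsz (0.67), Galns (0.87) and Cd63 (0.65) had changes close to those in wild type and did not pass, with edgeR adjusted p of 0.059, 0.064 and 0.11. Ctsl (0.07), Glb1 (0.12) and Npc2 (0.25) had smaller values than in wild type. Whether the effect of TAC differed between genotypes was tested by the interaction of genotype and surgery. It gave 0 lower and 0 higher calls among the 33 genes (0% and 0% of all genes tested) in edgeR, with 0 lower and 1 higher at an unadjusted p under 0.05, and 0 calls in DESeq2 and limma voom. The gene with that unadjusted p was Atp6v0a1 (0.34, SE 0.12, edgeR adjusted p = 0.997). Ctsl had the lowest p among those with a negative interaction (-0.44, SE 0.21, adjusted p = 0.997). When wild type TAC 1 was dropped, 4 of the 33 interactions were negative and 1 positive with an unadjusted p below 0.05. Their median was then -0.14, beside -0.11 in the fit of all 14 libraries. After adjustment 0 of the 33 passed in that smaller fit, where 1 of all 15880 genes was lower and 2 were higher. A difference in TAC response between genotypes was therefore not shown for any of the 33 at the adjusted threshold.

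**Figure D3:**
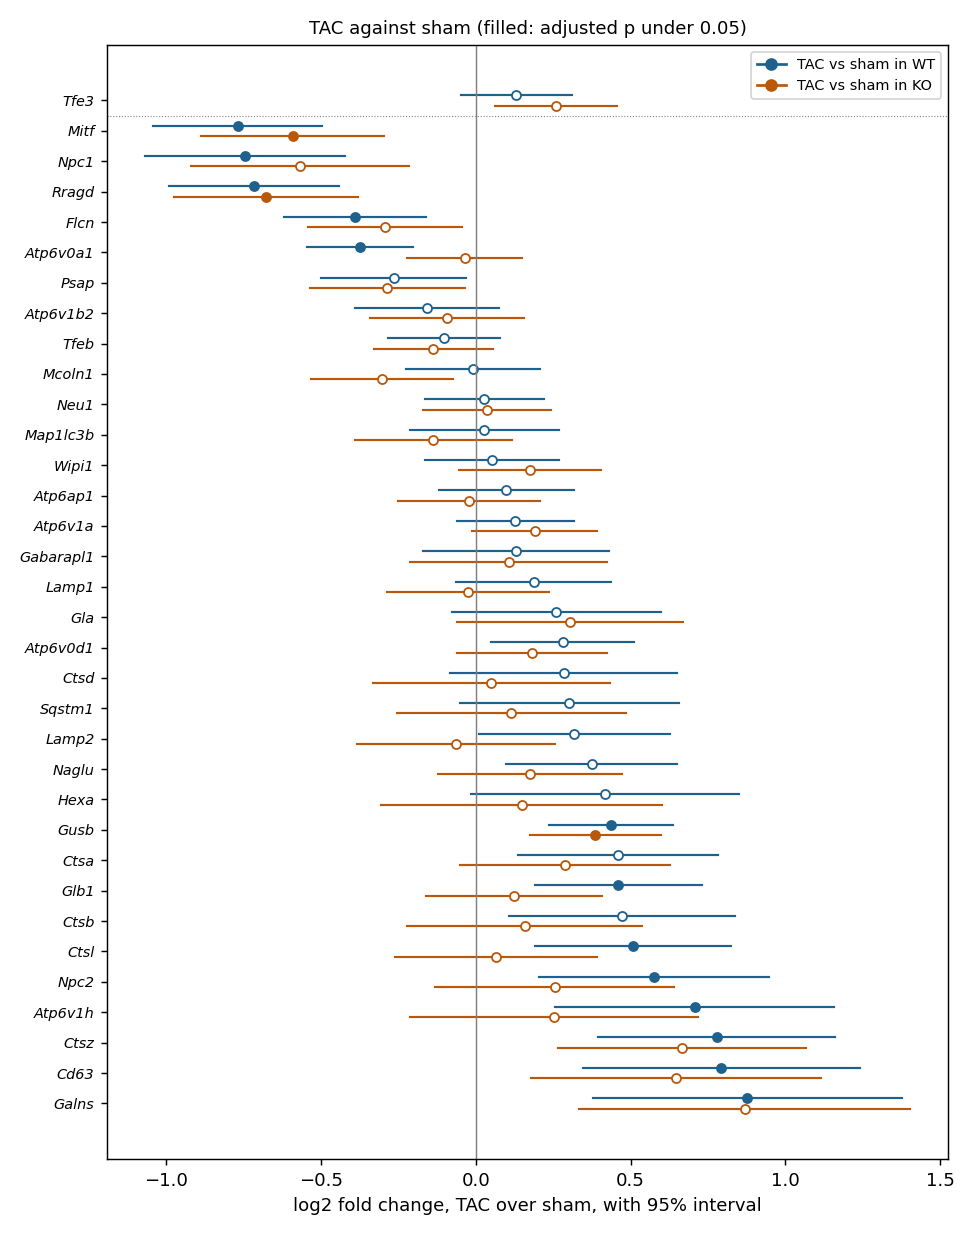
Log2 fold change of TAC over sham (horizontal axis) with 95% intervals for the 33 genes and Tfe3 in wild type (blue) and knockout (orange), ordered by the change in wild type; filled points passed an edgeR adjusted p of 0.05. Mitf and Rragd lie left of 0 and Gusb right of 0 with filled points in both genotypes.

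The counts for TAC in wild type rested on 2 sham libraries. Without either of them 0 genes rose and 0 fell. Leaving out wild type TAC replicate 4 left 2, replicate 3 left 4, and knockout TAC replicate 2 or 5 left 5. Without the library labelled wild type TAC 1, 12 rose, adding Ctsa, Ctsb, Lamp2 and Naglu, where 9.25% of all genes rose. Shares of all genes called are not given for the other fits that left out 1 library. In the knockout, the call at Gusb was lost without either sham library of either genotype or without knockout TAC replicate 1, 2 or 5. The number that rose there was 3 without the library labelled wild type TAC 1, where 2.87% of all genes rose. It was 2 without wild type TAC replicate 2 and 4 without replicate 7. The number that fell was 0 without knockout sham replicate 1, and 1 when the other knockout sham library, or either of knockout TAC 2 and 5, was left out.

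Wild type TAC replicate 7 was the highest of all 14 libraries at 20 of the 33 genes and the highest wild type TAC library at 22. Knockout TAC replicate 1 was the highest of the 4 knockout TAC libraries at 26. At 26 genes the library labelled wild type TAC 1 was at or below the highest knockout TAC library, and it was the lowest wild type TAC library at 14.

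**Figure D4:**
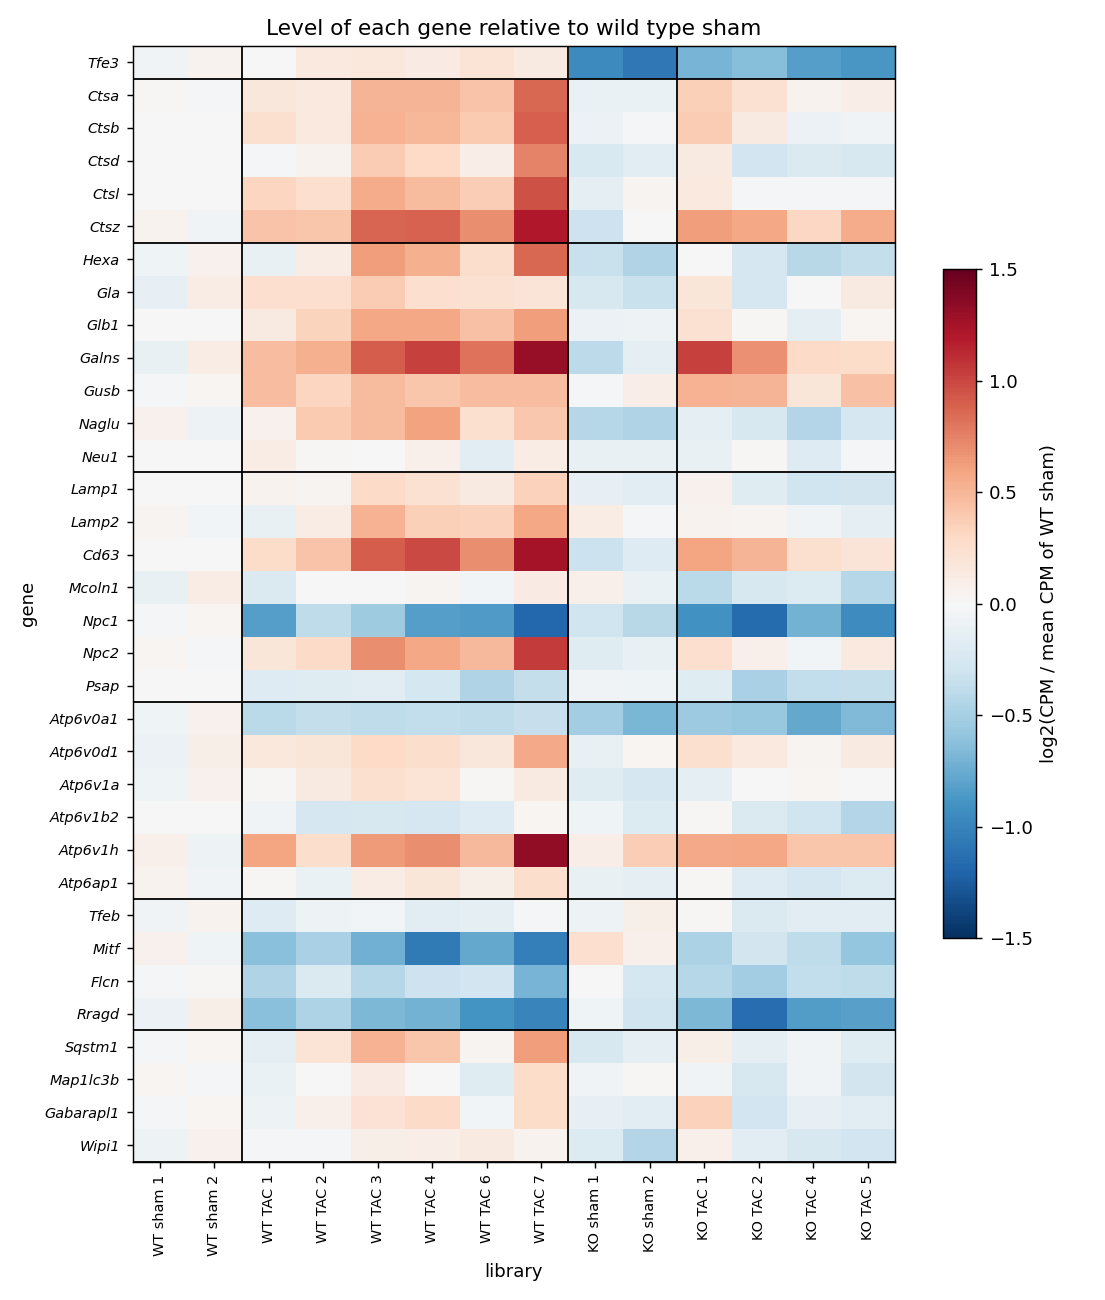
Colour shows log2 of the CPM over the mean CPM of wild type sham for Tfe3 and the 33 genes (rows, grouped by role: proteases, glycosidases and sulfatase, membrane and lipid-handling proteins, proton pump, regulators, autophagy) in each library (columns, by group). Wild type TAC replicate 7 has the deepest red at many hydrolases, and Npc1, Mitf and Rragd are blue in the TAC libraries of both genotypes.

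Genes of the same pathways outside the 33 were counted from lists chosen with results of these data known. Of 46 other lysosomal hydrolases and membrane proteins, 16 (34.8%) were lower and 0 higher in the knockout after TAC, where 5.63% of all genes were lower, with a median of -0.24. None of the 46 passed after sham (median -0.07). Over both surgeries 9 (19.6%) were lower, where 5.22% of all genes were. Without the library labelled wild type TAC 1 the counts were 21 after TAC and 14 over both surgeries, where 10% and 7.44% of all genes were lower. Over both surgeries and with all 14 libraries, Galc, which degrades the myelin lipid galactosylceramide, was at -0.65 (SE 0.09, edgeR adjusted p = 0.0013). In the same comparison Gnptab, which tags enzymes for delivery to lysosomes, was at -0.49 (SE 0.10, adjusted p = 0.0091). Ctsk, a collagen-degrading cathepsin, was at -1.24 there (SE 0.25, adjusted p = 0.014).

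Of 51 other autophagy genes, 5 were lower and 0 higher after TAC, a share of 9.80% against 5.63% of all genes and 6.91% of the genes at least as abundant as the least abundant of the 33, and the median was -0.12. Without the library labelled wild type TAC 1, 9 were lower, where 10% of all genes were. Ulk1, the kinase that starts autophagy, was lower over both surgeries by 0.33 on the log2 scale, at 75.7 CPM in wild type TAC and 62.5 in knockout TAC (edgeR adjusted p = 0.0096). Vps11 (-0.29, adjusted p = 0.017) and Wdr45b (-0.35, adjusted p = 0.023) were also lower in that comparison. Of the 12 other proton pump genes tested, Atp6ap2 was lower after TAC and Atp6v0a2 over both surgeries (-0.26, adjusted p = 0.019).

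Of 25 other genes of the folliculin, Rag and mTORC1 pathway, 4 (16%) were lower and 1 (4%) higher over both surgeries, against 5.22% and 3.73% of all genes, with a median of -0.03. After TAC 1 (Gpnmb) was lower and 1 (Nprl2) higher, against 5.63% and 3.71% of all genes. With wild type TAC 1 left out the lower count was 3, where 10% of all genes were lower. Over both surgeries Gpnmb stood furthest below wild type (-1.51, SE 0.35, edgeR adjusted p = 0.019), or at -1.60 with wild type TAC 1 left out. Its counts were low, at 16 to 34 in the knockout libraries. Whether it followed Tfe3 was not tested. Over both surgeries and with all 14 libraries, Fnip1, a partner of folliculin, was at -0.33 (adjusted p = 0.023). Tsc1, which restrains mTORC1, was at -0.33 there (adjusted p = 0.036). Nprl2, part of the GATOR1 complex that inactivates Rag GTPases, was higher in that comparison (0.35, adjusted p = 0.031).

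Cell type markers moved with these results, and in bulk tissue fewer cells of a type and less RNA per cell cannot be told apart. The summed level of 20 macrophage markers was 558 to 576 CPM in wild type sham, 703 to 1324 in wild type TAC, 568 to 593 in knockout sham and 622 to 828 in knockout TAC. After TAC 7 of the 20 were lower in the knockout (Cd163, Mrc1, Adgre1, Csf1r, Mpeg1, C1qa and Tyrobp), after sham 0 were, and 15 rose with TAC in wild type. Over all genes 5.63% were lower after TAC and 0.0882% after sham, and 6.36% rose with TAC in wild type. The genotype differences of the 20 after TAC ran from -0.83 to 0.51. The summed level of 9 fibroblast markers was 5622 to 9640 CPM in wild type TAC and 4135 to 5378 in knockout TAC. In sham hearts it was 5244 and 5129 CPM in wild type and 4417 and 4863 in the knockout, so both knockout sums were lower there too. After TAC 5 of the 9 were lower in the knockout, and after sham 0 were. Without the library labelled wild type TAC 1, 13 of the 20 macrophage and 9 of the 9 fibroblast markers were lower after TAC, where 10% of all genes were.

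Cardiomyocyte markers (12 genes) summed to 62679 to 87680 CPM in wild type TAC and 80684 to 92987 in knockout TAC, so the sums of the muscle markers lay in the other direction. None of the macrophage, fibroblast or cardiomyocyte markers was at 0 throughout. Mitochondrially encoded genes took 10.1% to 17.1% of counts in wild type TAC and 14.9% to 19.2% in knockout TAC. Wild type TAC replicate 7 had the highest macrophage and fibroblast sums and the lowest mitochondrial share of the 14 libraries. Within the wild type TAC group, the lowest macrophage and fibroblast sums were those of the library labelled wild type TAC 1. The part of cell composition in the lower lysosomal transcripts after TAC was not tested. In sham hearts the cardiomyocyte markers summed to 98394 and 99366 CPM in the knockout and 90222 and 88975 in wild type, and 7 smooth muscle and pericyte markers to 2294 and 2133 against 1666 and 1706. The genotype differences of these 7 markers ran from -0.20 to 1.23 after sham, with a median of 0.04. No marker of either list passed after sham.

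**Figure D5:**
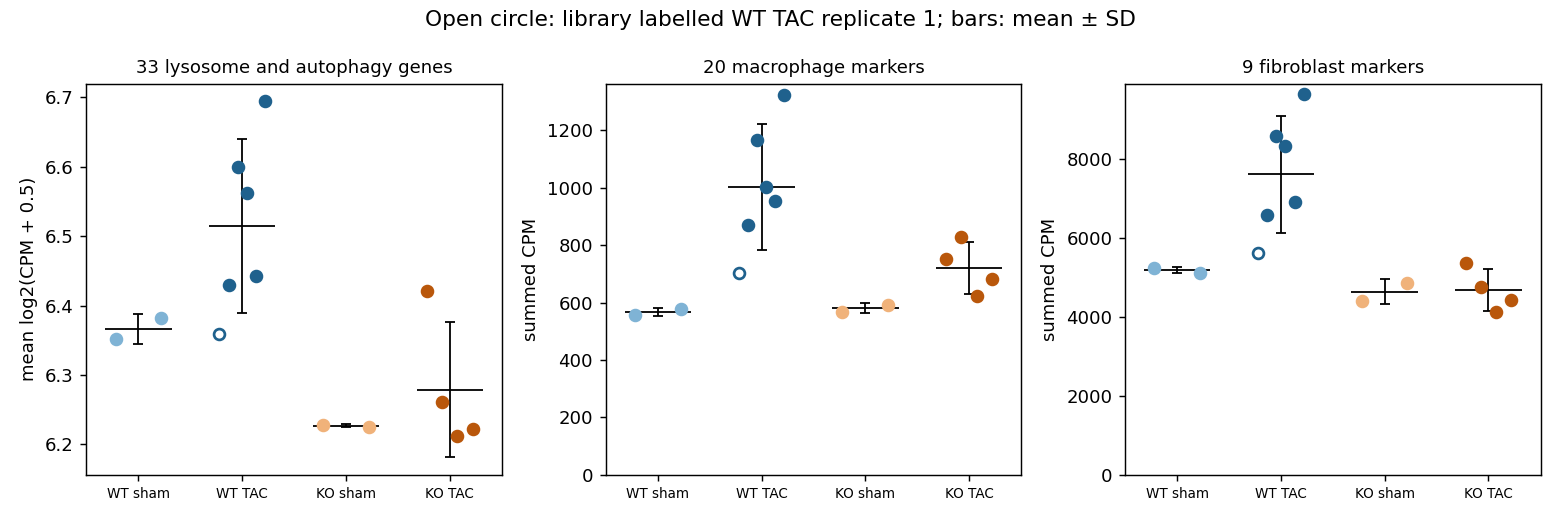
Mean log2(CPM + 0.5) of the 33 genes and summed CPM of 20 macrophage and 9 fibroblast markers (vertical axes) in each library, by group; points are libraries, lines are means, whiskers are ± SD, and the open circle is the library labelled wild type TAC 1. Wild type TAC replicate 7 is the highest point in all 3 panels.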

How the data were processed

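RNA was sequenced from 14 mouse heart libraries in 4 groups. The authors deposited raw gene counts (whole numbers, not normalized). Per the submitters' processing notes, HISAT2 2.1.0, featureCounts, FastQC and edgeR were used on build GRCm38; whether reads were counted by strand is not given in the sources used here, nor is the annotation release, so overlapping genes on opposite strands are uncertain. A library held 17072262 to 33123052 counts in total, and 3 counts correspond to 0.0906 to 0.176 CPM. Within groups, no pair of libraries agreed within sampling noise (chi-square per degree of freedom 4.62 to 186 over 23 pairs), and nothing in the labels beyond the stated numbers of mice shows that libraries are separate mice, so p-values measure the spread between libraries.

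Counts were tested with edgeR 4.0.16 in R 4.3.3: filterByExpr on group, TMM, 4 group means over all 14 libraries, glmQLFit (robust), glmQLFTest, and Benjamini-Hochberg adjustment over 15876 genes with a threshold of 0.05. Shared estimates of spread were needed because sham groups held 2 libraries. The comparisons share groups of libraries and are not independent of each other. The SE is the log2 fold change over the square root of F. Alternatives were RLE factors, no filter, DESeq2 1.42.0, limma 3.58.1 voom with sample weights, a replicate block, the compared groups alone and leaving out each library; leaving out wild type TAC 1 for the other lists and for values that do not overlap was chosen after seeing the data. The fit was tested on simulated data. Coordinates and exon lengths are from GENCODE M21 (GRCm38).

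Values in every library, or the range and median of a group of 6, are given for Ccl24, Tfe3, Tfeb, Mitf and up to 4 genes per direction and comparison with the smallest p among those past the threshold, and up to 3 per direction for the other lists. The 33 genes and the lists were chosen with earlier results of these data known.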

Additional observations from a re-analysis of the deposited data

Results flagged for a closer look

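In each of the 70 combinations of gene and TAC group, over the 33 genes, Tfe3 and Ccl24, the highest and lowest library were compared with the rest of their group, and 5 stood apart by Dixon's criterion at the 95% level; chance flags about 5% of such groups. Knockout TAC replicate 1 held 728 CPM of Ctsd, against 575 in the next library, and 217 CPM of Ctsl, against 194. Wild type TAC replicate 7 held 69.5 CPM of Atp6v0d1, against 57.8, and 51.2 CPM of Atp6v1h, against 33.2. Wild type TAC replicate 3 held 5.39 CPM of Gla, against 4.92. All 5 were the highest library of their group.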

How the results depend on the processing

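No alternative reversed the direction of a called gene: of the values of single genes, 1387 kept their side of the threshold, 103 newly passed and 167 no longer passed. With limma voom and sample weights, 17 of the 33 genes were lower and 1 higher in the knockout over both surgeries, 18 were lower and 1 higher after TAC, 17 rose with TAC in wild type, and 4 rose and 4 fell in the knockout. With RLE factors, with DESeq2 and without the filter, 1 gene (Mitf) was higher after TAC. Without the filter, 5 genes rose with TAC in wild type and 0 in the knockout, and with DESeq2 4 rose in the knockout. With the compared groups fitted alone, 5 were lower after TAC and 3 after sham, 1 rose with TAC in wild type and 4 in the knockout. Shares of all genes called are not given beside the counts of this section. These counts therefore do not set the 33 genes apart from other genes.

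With each library left out, genes lower in the knockout numbered 2 to 7 over both surgeries, 1 to 14 after TAC (0 to 1 higher) and 0 to 1 after sham. With TAC in wild type 0 to 12 rose and 0 to 5 fell, with a median of 0.15 to 0.28, and in the knockout 0 to 4 rose and 0 to 3 fell. The cause of these changes was not tested.

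Replicate numbers did not pair the samples: of 13 same-numbered pairs, 1 had a correlation of deviations over 0.1 (range -0.244 to 0.108). With the replicate block, 1 gene was lower over both surgeries, 0 after TAC and 0 after sham. With that block 0 rose and 0 fell with TAC in wild type (median 0.094), and 0 rose and 1 fell in the knockout.

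With 2 libraries in each sham group, precision was lower after sham: the SE of the genotype difference of Naglu was 0.16, against 0.10 after TAC. The label of wild type TAC replicate 1 is doubtful, and summed cell type marker levels differ between the groups compared; their part in the results was not tested.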
